A study of Homo sapiens with 18 samples.

Results

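The genes described here carry a TMEM symbol, a number and at most 1 letter, the placeholder name given to predicted transmembrane proteins. They were taken from a table of counts with 25435 rows, in which 252 symbols had this form. The 198 genes with at least 10 counts in at least 3 of the 18 libraries were kept and are called the TMEM genes below, and 54 fell under that minimum. Just inside it stood TMEM52B and TMEM88, whose third-highest count was 10, and just outside it TMEM106A and TMEM191B with 9. The cells were HEK293doxERN2, a human embryonic kidney line in which doxycycline switches on a FLAG-tagged ERN2 transgene, so the line is not an intestinal goblet cell, where ERN2 is normally found. Every library came from this line, so an effect of doxycycline itself cannot be told apart from that of ERN2 here. Doxycycline was given for 24 hours at 10 or 100 ng/mL, or left out ("low", "high" and "none" in the plots). At each dose, 3 libraries came from cells given DMSO as vehicle and 3 from cells given 200 nM thapsigargin (Tg) for the last step of 3 hours, which makes 6 groups of 3. Thapsigargin blocks the calcium pump of the endoplasmic reticulum (ER) and causes ER stress. The labels do not say whether replicates were separate cultures, so p-values measure the spread between these libraries, which may be technical.

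ERN2, also named IRE1β, is a sensor of the ER membrane whose cytosolic part is an endoribonuclease. It starts the splicing of XBP1 mRNA, and IRE1 enzymes can also cleave other mRNAs, many of them translated at the ER membrane, a process known as regulated IRE1-dependent decay. Proteins with transmembrane segments are mostly made at that membrane. Many TMEM proteins have no cleaved signal peptide and enter it through a transmembrane segment instead. They share no single function, and sit in the ER, the Golgi apparatus, endosomes, mitochondria, cilia, the nuclear envelope and the cell surface.

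Library totals ran from 14876416 to 24652240 counts. ERN2 reached 6.57 to 9.10 CPM (counts relative to the size of each library) in uninduced vehicle libraries, 22.5 to 55.9 CPM at the low dose and 249 to 309 CPM at the high one, in the order of the labels. With thapsigargin it was at 10.4 to 14.2 CPM without doxycycline and 32.1 to 112 CPM at the low dose. Replicates 1, 2 and 3 at the high dose with thapsigargin had 272, 175 and 175 CPM. The kidney line's markers PAX2, EYA1, LIN28B, NEFM and NEFL were detected in every library, from PAX2 at 1.20 to 4.35 CPM to NEFL at 66.5 to 123 CPM. One label names colon crypts as the source of RNA, but the colon markers VIL1, KRT20, MUC2 and CDH17 were at or near 0, with at most 0.243 CPM. The other two, CDX2 at 3.36 to 8.83 CPM and LGR5 at 8.53 to 35.5 CPM, were detected, and the summed colon list lay at 26.0 to 39.7 CPM without doxycycline and 18.8 to 26.8 at 100 ng/mL in vehicle.

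TMEM genes differed in level over more than 3 orders of magnitude. Per kilobase of transcript and over all 18 libraries, the highest mean levels were those of TMEM106C at 101 CPM per kilobase, TMEM259 at 85.1 and TMEM258 at 70.8. The median TMEM gene stood at 6.92 CPM per kilobase and the lowest, TMEM154, at 0.0405. TMEM259, or membralin, takes part in ER-associated degradation, and TMEM258 is a small subunit of the oligosaccharyltransferase that attaches N-glycans in the ER. In CPM, without regard to length, the 5 highest were TMEM259, TMEM123, TMEM194A, TMEM2 and TMEM106C. Exons of 74 of the 198 genes overlapped an exon of a gene on the opposite strand in GENCODE 29, and 34 an exon of another gene on the same strand. The strand setting of the authors' counting is not given, so reads of such neighbours may be shared.

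Translated GENCODE proteins were available for 195 TMEM genes. A hydrophobic segment, defined as a stretch of 19 residues with a mean Kyte-Doolittle hydropathy of at least 1.6, was found in 191 of them, against 33.3% of 13530 proteins of other genes. Overlapping stretches were merged, and a long merged run was counted as several segments according to its length. The median TMEM protein had 3 segments and 274 residues. In 79 of the 195 the first segment began within the first 25 residues, the region where a signal peptide or an N-terminal anchor would lie.

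The first question was what 100 ng/mL of doxycycline did to these genes without stress. Of the 198 TMEM genes, 191 passed edgeR's filter on low counts. Of these, 33 fell and 2 rose in edgeR's quasi-likelihood test at a Benjamini-Hochberg adjusted p under 0.01, which is the call used throughout. In this comparison 7.49% of all 14444 genes tested were called lower and 0.838% higher, so the share of TMEM genes called lower, 17.3%, was above the background and the share called higher, 1.05%, near it. The median log2 fold change was -0.20 over the TMEM genes and -0.01 over all genes. The solute carriers, another family of multi-pass proteins named by symbol, had 38 of 208 called lower, 4 called higher and a median of -0.25.

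**Figure D1:**
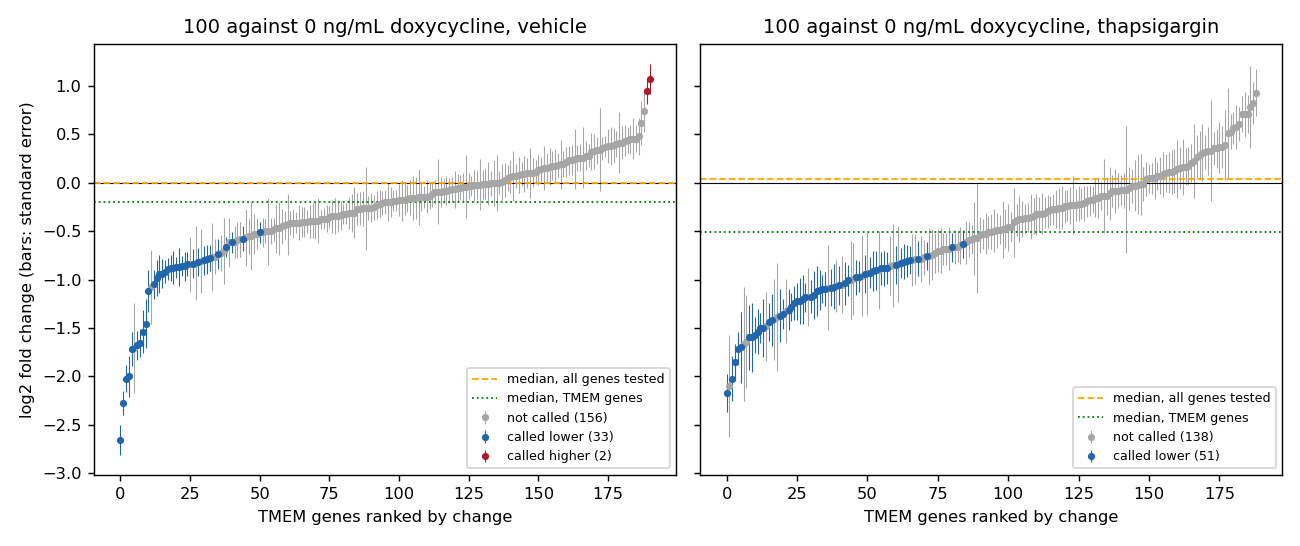
Log2 fold change of each tested TMEM gene between 100 and 0 ng/mL doxycycline, ranked, in vehicle (left, 191 genes) and with thapsigargin (right, 189 genes). Bars are standard errors, colours mark calls at an adjusted p under 0.01, and the dotted line, the median of the TMEM genes, lies at -0.20 on the left and -0.50 on the right, under the dashed line of all genes.

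TMEM19, a multi-pass protein of little-known function (chr12:71686087-71705046), fell the most. Its level was 50.7, 71.0 and 55.8 CPM without doxycycline and 8.97, 10.2 and 9.67 CPM at 100 ng/mL. Every induced library lay below every uninduced one, and the log2 fold change was -2.66 ± 0.15 (SE, adjusted p = 3.0e-07). TMEM165 (chr4:55395957-55453397), a Golgi protein needed for manganese balance and glycosylation, was at 54.4, 54.3 and 55.2 CPM without doxycycline and at 11.2, 11.4 and 12.4 CPM with 100 ng/mL. The libraries within each group were closely alike, and the log2 fold change was -2.27 ± 0.12 (SE, adjusted p = 1.8e-07). TMEM165 shares 76 bases of exon with CLOCK on the opposite strand.

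TMEM179B fell from 33.4, 33.1 and 31.1 CPM to 7.41, 8.61 and 8.66 CPM, a log2 fold change of -2.02. It overlaps 454 exonic bases of TMEM223, another TMEM gene on the opposite strand, which was not called in vehicle at -0.51. TMEM50A fell from 127, 145 and 132 CPM to 43.1, 35.8 and 53.3 CPM, a log2 fold change of -1.66. Its paralog TMEM50B was not called, with 30.8, 43.5 and 31.9 CPM without doxycycline and 31.7, 28.1 and 31.8 with it, which overlap.

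The rest of the 12 genes that fell most were TMEM132B (-2.0), TMEM255A (-1.71), TMEM9B (-1.68), TMEM54 (-1.54), TMEM17 (-1.46), TMEM260 (-1.12), TMEM8A (-1.05) and TMEM47 (-0.99). TMEM9B is an endosomal glycoprotein, and its relative TMEM9 was not called in vehicle at -0.42. TMEM17 belongs to the ciliary transition zone, TMEM260 is an O-mannosyltransferase of the ER, TMEM8A is a surface phospholipase that acts on GPI-anchored proteins, and TMEM47 is a claudin-like junction protein. In vehicle, 4 members of the TMEM132 family, large single-pass proteins with an immunoglobulin-like outer part, passed the filters, and each of these fell, though the call of TMEM132A was lost in 1 fit of all groups, with the replicate number as a block and without uninduced replicate 1 (adjusted p = 0.010 and 0.020 in the edgeR fits of all groups and with the block). Their log2 fold changes were -0.79 (TMEM132A), -2.0 (TMEM132B), -0.88 (TMEM132D) and -0.82 (TMEM132E). TMEM132C was under the count minimum.

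**Figure D2:**
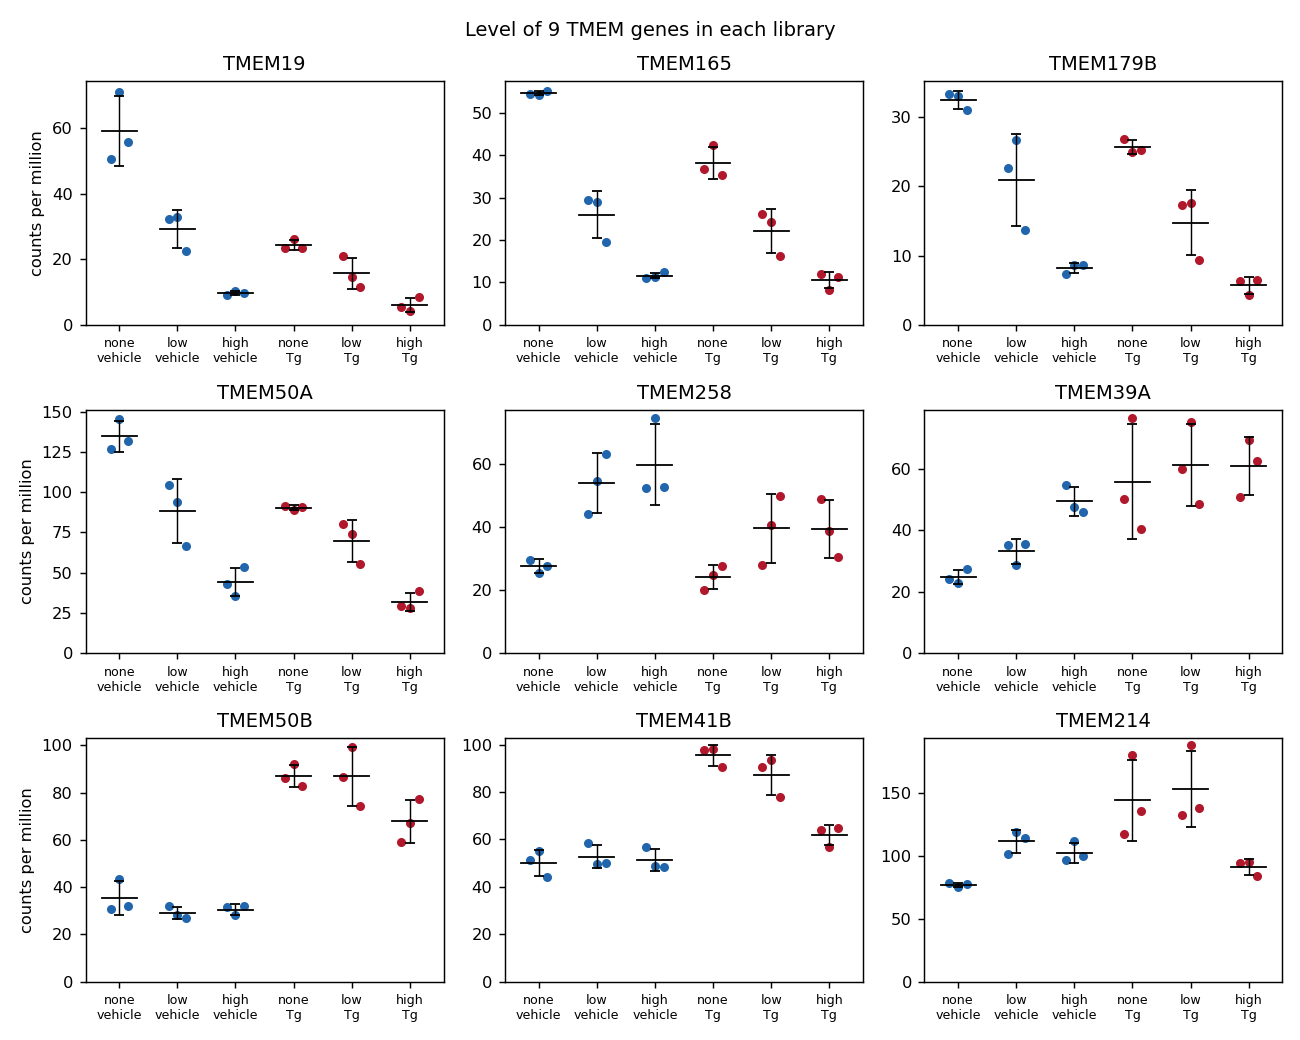
Level in CPM (linear axis from 0) of 9 TMEM genes in each of 18 libraries, by dose of doxycycline, in vehicle (blue) and thapsigargin (red), with the mean and SD of 3 libraries as bars. TMEM19, TMEM165, TMEM179B and TMEM50A step down with dose in vehicle, TMEM258 and TMEM39A have higher means at both doses, and TMEM50B stands above 59 CPM in each thapsigargin library.

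The 2 genes that rose have known roles at the ER. TMEM258, the oligosaccharyltransferase subunit, went from 29.6, 25.4 and 27.8 CPM to 52.2, 74.5 and 52.5 CPM, a log2 fold change of 1.07 ± 0.16 (SE, adjusted p = 0.00041). It shares 566 exonic bases with MYRF and FEN1 on the opposite strand. TMEM39A, an ER protein with a role in autophagy, went from 24.2, 23.0 and 27.5 CPM to 54.8, 47.7 and 45.9 CPM, a log2 fold change of 0.95 ± 0.13 (SE, adjusted p = 0.00021). In both, every induced library lay above every uninduced one.

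The promoters of these 2 genes and of TMEM214, which rose with thapsigargin, are shown because the elements bound by ATF6 and XBP1 lie in such windows in other stress genes. They were chosen after their values were seen. Each runs from 250 bases before to 50 after the start of a RefSeq transcript in GRCh38.p14, 5′ to 3′ on the gene's strand. Capitals mark CCACG on either strand, the second part of the ER stress element.
TMEM258, chr11:61792550-61792849, minus strand: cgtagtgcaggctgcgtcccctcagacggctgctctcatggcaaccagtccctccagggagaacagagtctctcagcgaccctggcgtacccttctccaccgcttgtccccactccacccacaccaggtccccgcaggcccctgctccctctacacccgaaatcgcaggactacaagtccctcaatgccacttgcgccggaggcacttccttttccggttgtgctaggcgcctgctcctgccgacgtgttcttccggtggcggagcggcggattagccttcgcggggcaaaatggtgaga
TMEM39A, chr3:119463566-119463865, minus strand: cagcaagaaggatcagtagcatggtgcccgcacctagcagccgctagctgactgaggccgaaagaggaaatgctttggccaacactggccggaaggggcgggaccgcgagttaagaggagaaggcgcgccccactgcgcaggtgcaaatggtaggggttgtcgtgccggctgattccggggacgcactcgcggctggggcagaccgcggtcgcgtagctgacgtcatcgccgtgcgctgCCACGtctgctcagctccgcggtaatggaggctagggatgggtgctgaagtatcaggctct
TMEM214, chr2:27032715-27033014, plus strand: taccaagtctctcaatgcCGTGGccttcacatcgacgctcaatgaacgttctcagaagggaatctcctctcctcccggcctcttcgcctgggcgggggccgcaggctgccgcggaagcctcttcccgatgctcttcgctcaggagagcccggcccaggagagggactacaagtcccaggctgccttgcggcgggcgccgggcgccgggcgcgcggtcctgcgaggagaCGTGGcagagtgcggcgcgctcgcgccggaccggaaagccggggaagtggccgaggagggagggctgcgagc

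CCACG was found 0 times in the TMEM258 window, 1 time in that of TMEM39A and 2 times in that of TMEM214, and 38.1% of 35116 promoters in the table hold it. Among TMEM genes it was in 101 of 190 promoters, belonging to 87 of 151 genes. The whole ER stress element, CCAAT and CCACG 9 bases apart, was in none of these 3 windows. Among the 151 TMEM genes with a promoter in the table it was in that of TMEM120A, and 0.0769% of all promoters hold it. TGACGTG, the core of the unfolded protein response element, was in a promoter of TMEM59, TMEM9 and TMEM130 (1.97% of all promoters) and TTGCATC, an ATF4 element, in 1 of TMEM9B (2.40%). None of these 5 genes was called higher at 100 ng/mL in vehicle or with thapsigargin alone. All motifs were searched on both strands.

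TMEM genes grouped by where their proteins lie differed in their counts. Among type I or signal-peptide proteins, 9 of 20 fell and 0 rose in vehicle at 100 ng/mL, with a median of -0.62. This list includes TMEM123, TMEM131 (an ER protein that helps collagen leave the cell, -0.92), TMEM59L, TMEM158 and the TMEM132 family. Of 9 proteins of the cell surface, 5 fell, with a median of -0.66, among them TMEM63B, a mechanosensitive channel (-0.87), and TMEM2, a surface hyaluronidase (-0.66). TMEM63A, of the same channel family, was not called in vehicle at -0.26.

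Among the 19 genes on the list of ER membrane proteins, 4 fell and 1 rose, with a median of -0.34. Those that fell were TMEM33, a binding partner of PERK (-0.84), TMEM64 (-0.80), TMEM129, a ubiquitin ligase of ER-associated degradation (-0.94), and TMEM131. TMEM258 was the one on the list that rose. TMEM39A and TMEM260, described above as ER proteins, were not on it. TMEM147, a partner of the translocon, was not called in vehicle at -0.55, and TMEM41B, a lipid scramblase needed for autophagosomes, had a log2 fold change of -0.01 ± 0.12 (SE), with 51.4, 55.0 and 44.1 CPM without doxycycline and 56.8, 48.9 and 48.6 CPM with it. Of 10 Golgi proteins TMEM165 fell and the median was -0.14, while TMEM87A was not called at -0.20. Of 10 proteins of endosomes and lysosomes, 2 fell, TMEM9B and TMEM127 (-0.61). TMEM106B, a lysosomal protein, was not called at -0.32.

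Of 8 proteins of the ciliary transition zone 2 fell, TMEM17 and TMEM237 (-0.51), and TMEM67 was not called at -0.27. Of 11 mitochondrial proteins none fell or rose and the median was 0.18, with TMEM70 at -0.16 and TMEM126A at 0.23. Of 5 proteins of the nuclear envelope none was called and the median was 0.05, with TMEM43 at 0.09 and TMEM194A (NEMP1) at -0.14. The lists overlap, were written from general knowledge and hold between 5 and 20 TMEM genes, so their counts and medians are descriptions. Differences between the lists were not tested. The 4 genes with the smallest changes among those with an SE under 0.15 were TMEM120B (0.00), TMEM41B, TMEM173 (STING, -0.02) and TMEM106C (-0.03).

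The change at 100 ng/mL in vehicle was set against features of transcript and protein as a description. The 4 tested TMEM genes whose protein had 0 segments had a median log2 fold change of 0.08 and none was called lower. With 1 segment, 2 of 29 were called lower (median -0.09), with 2 segments 9 of 60 (-0.20), with 3 to 4 segments 13 of 57 (-0.20), and with 5 or more segments 9 of 39 (-0.31). The shares of other genes called lower were 16.1%, 25.6%, 28.4% and 25.9% in the classes with a segment, above the 6.90%, 15.0%, 22.8% and 23.1% of TMEM genes in each class. Medians of other genes ran from 0.04 over 8780 genes with 0 segments to -0.44 over 657 with 5 or more. Whether the first segment came early was looked at next. The 76 tested TMEM genes with one had a median of -0.25, and 15 were called lower, and the 113 without one had a median of -0.16, and 18 were called lower. For other genes the medians were -0.46 (1535 genes) and 0.01 (11528 genes), and 8780 of the latter encode proteins with 0 segments. The shares called lower were 31.5% and 4.84% for other genes, against 19.7% and 15.9% for TMEM genes. Over all genes with 1 or more segments, 20.6% of other genes and 17.8% of TMEM genes were called lower. Among genes with 1 or more segments but no early one, the medians were -0.16 over 109 TMEM genes and -0.13 over 2748 others. The difference between TMEM and other genes was not tested.

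**Figure D3:**
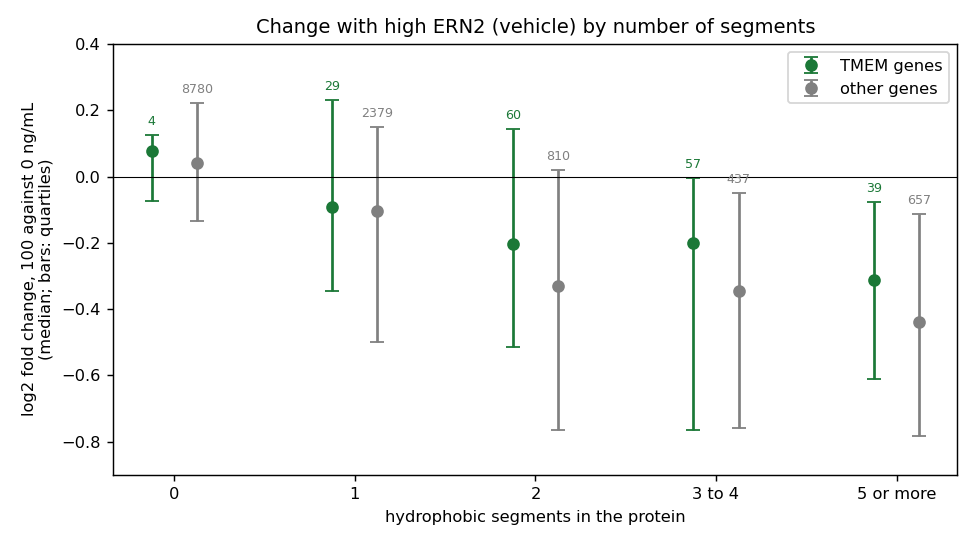
Median log2 fold change at 100 against 0 ng/mL doxycycline in vehicle, by number of hydrophobic segments in the protein, for TMEM genes (green) and other genes (grey), with quartiles as bars and the number of genes above each. Both medians are near 0 without a segment and lowest at 5 or more segments, -0.31 and -0.44.

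Transcripts of the 33 TMEM genes called lower had a median length of 4054 bases, against 2142.5 bases for the 156 others with a coding transcript. Spearman's rho between transcript length and log2 fold change was -0.38 over 189 TMEM genes and -0.26 over 13063 other genes. Genes are not independent replicates, and long transcripts gather more counts, so these values carry no test. CTGCAG, the core of the loop that IRE1 enzymes cut in XBP1 mRNA, occurred in 30 of the 33 transcripts called lower and in 124 of the 156 others, but per kilobase its median was 0.704 and 0.706. For other genes the shares were 91.6% and 84.7%, and the medians 0.767 and 0.713 per kilobase.

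At 10 ng/mL in vehicle, 193 TMEM genes were tested and 2 were called. TMEM165 fell to 29.6, 28.9 and 19.7 CPM (log2 fold change -1.07 ± 0.15, SE, edgeR adjusted p = 0.0072) and TMEM258 rose to 44.2, 54.7 and 63.0 CPM (0.96 ± 0.15, adjusted p = 0.0097). Of all 14497 genes tested, 0.0552% were called lower and 0.138% higher. The median log2 fold change was 0.00 over the TMEM genes. TMEM19 was at -1.02 (adjusted p = 0.016), with 32.3, 32.8 and 22.6 CPM, all below the uninduced libraries. The count was 33 TMEM genes, 17 lower and 16 higher, without replicate 1 at 10 ng/mL, which is 17.1% of those tested against 18.8% of all genes in that fit. It was 1 without replicate 3 at 10 ng/mL (0.518%, against 0.13% of all genes). It was 0 without replicate 2 at 10 ng/mL or any 1 of the 3 uninduced libraries, where 0% of all genes were called.

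The libraries at 10 ng/mL were not alike in ERN2. Replicate 3 had 55.9 CPM of ERN2 in vehicle, against 22.5 and 27.1 in the others, and 112 CPM with thapsigargin, against 32.1 and 53.9. Of the 33 TMEM genes called lower at 100 ng/mL in vehicle, 25 (75.8%) had their lowest level of the 3 vehicle libraries in replicate 3, and 27 (81.8%) had it there with thapsigargin. The shares were 41.4% and 48.5% over the 198 TMEM genes, and 33.1% and 42.0% over all 14497 genes. TMEM179B was at 22.6, 26.7 and 13.7 CPM in vehicle, and TMEM132B at 6.63, 6.72 and 2.22 CPM, replicate 3 last. Replicate 3 may differ from the others in more than ERN2, and its part in these values was not tested.

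With thapsigargin, 100 ng/mL of doxycycline was compared with none in 6 further libraries. Of 189 TMEM genes tested, 51 fell (27.0%, background 9.00% of 14358 genes). By edgeR 0 rose (background 1.53%), with 9 above 0 at an unadjusted p under 0.05 against 2343 of all genes, while DESeq2 called 5 higher (2.53%, against 3.47% of all genes). The median log2 fold change was -0.50 over the TMEM genes and 0.04 over all genes. Of the 33 genes called lower in vehicle, 27 were also called lower here, which is 81.8% of the vehicle list and 52.9% of this one. The same shares over all genes were 76.2% and 63.9%, and the vehicle and thapsigargin comparisons share no library.

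TMEM179B was lowest at -2.17 ± 0.20 (SE), with 26.8, 24.98 and 25.2 CPM without doxycycline and 6.35, 4.30 and 6.46 CPM with it. TMEM19 (-2.02), TMEM165 (-1.86), TMEM129 (-1.71) and TMEM17 (-1.70) followed among those called. The counts of the lists below stand beside 9% of all genes and 27% of TMEM genes called lower. In the ER list 8 of 19 fell with a median of -0.66, among them TMEM147 at -1.24 and TMEM66 (SARAF, which limits store-operated calcium entry) at -0.93. TMEM147 was at 32.4, 38.4 and 47.2 CPM without doxycycline and 18.8, 14.4 and 16.7 CPM with it, with no overlap. In the list of type I or signal-peptide proteins 11 of 20 fell (median -1.01), at the cell surface 3 of 9 (-0.54), in endosomes and lysosomes 4 of 10 (-0.51), in the Golgi 2 of 10 (-0.41), in the transition zone 2 of 8 (-0.19), in the nuclear envelope 1 of 5 (-0.36) and in mitochondria 1 of 11 (0.05). TMEM258 was at 0.71 ± 0.20 (SE, edgeR adjusted p = 0.024) and TMEM39A at 0.12 ± 0.23.

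The count of 51 depended on single libraries. It was 83 without replicate 1 at 100 ng/mL with thapsigargin (43.2%, against 27.2% of all genes) and 18 without replicate 2 there (9.18%, against 5.23%). It was 21, 26 and 32 without replicates 1, 2 and 3 of the uninduced thapsigargin libraries (10.8%, 13.6% and 16.5%, against 6.01%, 6.63% and 7.58%).

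**Figure D4:**
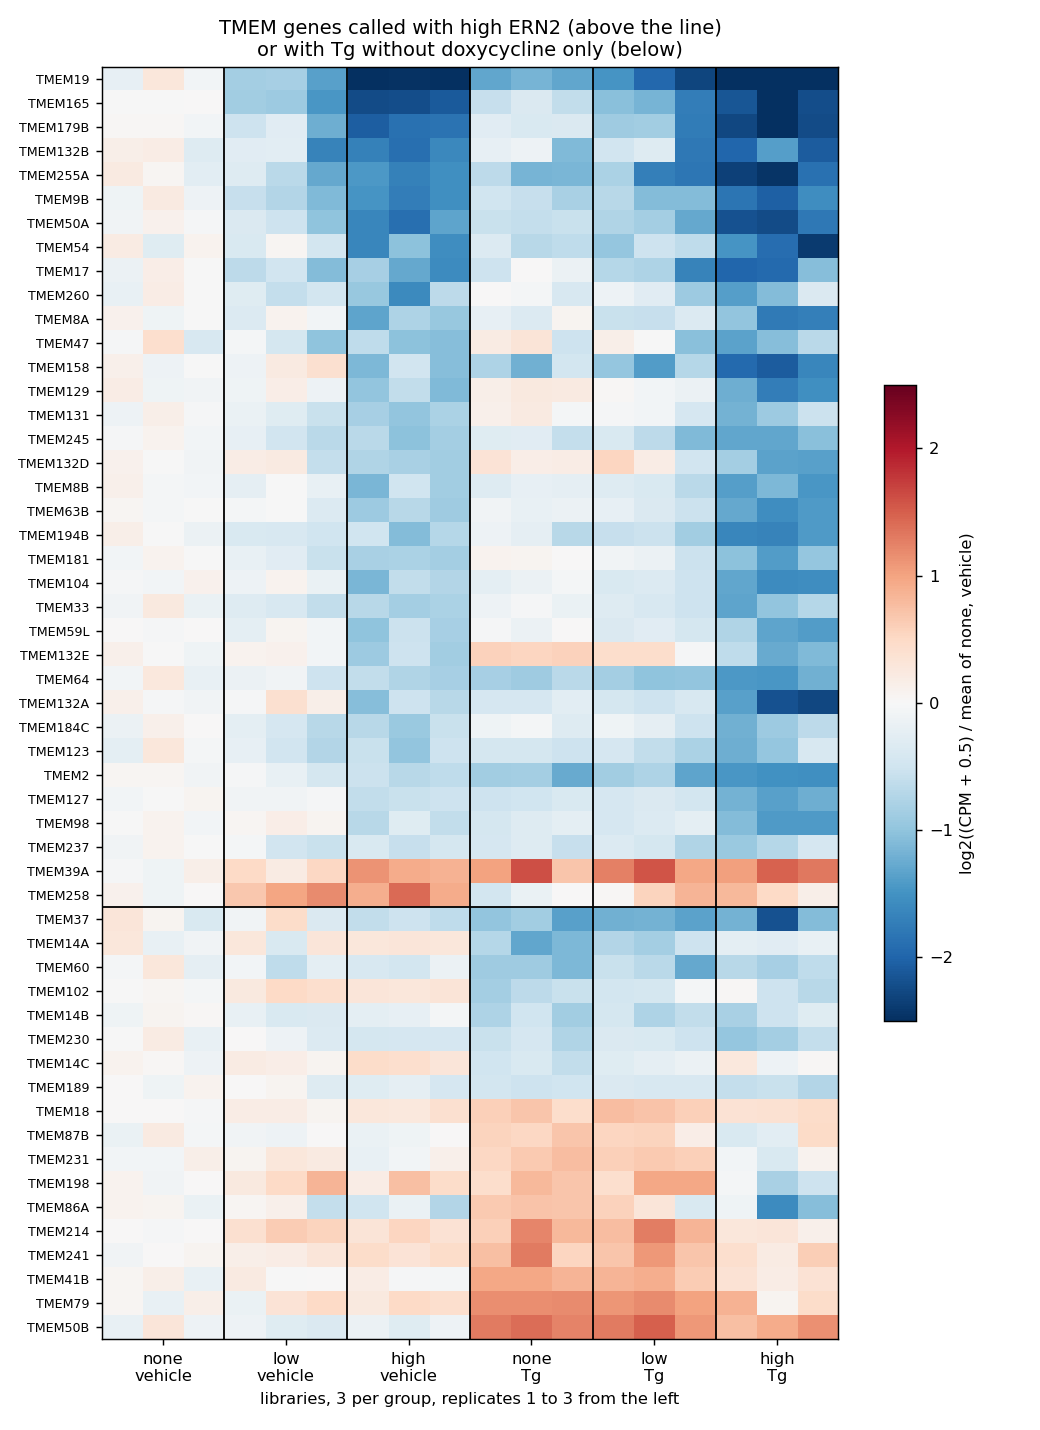
Log2 ratio of CPM + 0.5 to the mean of the uninduced vehicle libraries, for the 35 TMEM genes called at 100 ng/mL in vehicle (above the line) and 18 more called with thapsigargin without doxycycline (below it), in 18 libraries. Colours stop at 2.5 in either direction, and the rows of TMEM19, TMEM165 and TMEM179B are darkest blue in the 6 libraries given 100 ng/mL.

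At 10 ng/mL with thapsigargin, edgeR called 0 of 193 TMEM genes, with 14 lower and 1 higher at an unadjusted p under 0.05 against 434 and 178 of all genes, and DESeq2 also called 0. The background was 0% of 14509 genes. Here the replicate numbers were taken to pair the libraries, which the labels do not state. The pairing was read from the same counts, where the deviations of same-numbered libraries correlated at 0.44 to 0.59. With the replicate number as a block, an alternative to the main fit, 11 fell and 1 rose. The blocked fit called 2.53% of all genes lower and 1.36% higher. TMEM179B (-0.83), TMEM165 (-0.81), TMEM19 (-0.67), TMEM44, TMEM50A, TMEM8A, TMEM245, TMEM181, TMEM33, TMEM47 and TMEM131 fell and TMEM258 rose (0.68) in that fit.

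Thapsigargin itself was compared with vehicle in uninduced cells. Of 191 TMEM genes, 12 rose (6.28%, background 6.45% of 14397 genes) and 17 fell (8.90%, background 4.74%). TMEM50B rose from 30.8, 43.5 and 31.9 CPM to 86.2, 92.2 and 82.9 CPM, a log2 fold change of 1.31 ± 0.14 (SE, edgeR adjusted p = 4.4e-05). Every stressed library lay above every control. TMEM79 (1.25), TMEM39A (1.17), TMEM41B (0.94) and TMEM241 (0.94) followed. TMEM41B went from 51.4, 55.0 and 44.1 CPM to 97.9, 98.4 and 90.4 CPM. TMEM214, an ER protein, rose from 78.1, 75.2 and 77.9 CPM to 117, 180 and 135 CPM.

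The genes that fell most with thapsigargin were TMEM37 (-1.50), TMEM19 (-1.27), TMEM14A (-1.08), TMEM60 (-1.05) and TMEM255A (-1.02). TMEM19 went from 50.7, 71.0 and 55.8 CPM to 23.5, 26.0 and 23.6 CPM. TMEM37 was near the count minimum, at 0.51 to 0.91 CPM with thapsigargin. TMEM14B (-0.71) and TMEM14C, which carries a haem precursor into mitochondria (-0.49), also fell. TMEM50A fell by 0.57 on the log2 scale, against the rise of its paralog TMEM50B. The count of 29 was 12, 19 and 17 without replicates 1, 2 and 3 of the uninduced vehicle libraries (6.28%, 9.9% and 8.76%, against 5.02%, 7.8% and 6.32% of all genes). It was 14, 14 and 26 without replicates 1, 2 and 3 of the thapsigargin libraries (7.22%, 7.33% and 13.5%, against 6.22%, 6.84% and 13%). With the replicate number as a block, 32 fell (16.8%, against 12% of all genes) and 19 rose (9.95%, against 12.8%).

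At 10 ng/mL of doxycycline, TMEM50B was the 1 TMEM gene of 193 that rose with thapsigargin (1.57 ± 0.14, SE, edgeR adjusted p = 0.00030), where 1.16% of 14607 genes were called higher and 0.294% lower. By edgeR 0 fell, with 35 at an unadjusted p under 0.05 against 1613 of all genes, and DESeq2 called 10 lower (5.05%, against 2.02% of all genes). The count was 3 without replicate 1 at 10 ng/mL in vehicle (1.53%, against 1.67% of all genes) and 4 without replicate 3 at 10 ng/mL with thapsigargin (2.04%, against 3.32%). With the replicate number as a block, 38 fell (19.7%, against 11.4% of all genes) and 19 rose (9.84%, against 13.4%). The deviations of same-numbered libraries correlated there at 0.61, -0.04 and 0.57. At 100 ng/mL TMEM50B was again the 1 called of 190, with 31.7, 28.1 and 31.8 CPM in vehicle and 59.2, 67.1 and 77.3 CPM with thapsigargin (1.17 ± 0.15, adjusted p = 0.0089), where 0.18% of 14427 genes were called higher and 0.0208% lower. By edgeR 0 fell there, with 65 at an unadjusted p under 0.05 against 1780 of all genes, and DESeq2 called 18 lower (9.09%, against 2.36% of all genes). Without replicate 1 at 100 ng/mL with thapsigargin the count was 45, of which 41 were lower (21.2%, against 7.84% of all genes) and 4 higher (2.07%, against 9.78%), and it was 0 without any 1 of the other 5 libraries.

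The 12 genes that rose with thapsigargin in uninduced cells were followed to 100 ng/mL. Their median log2 fold change with thapsigargin was 0.83 in uninduced cells, 0.53 at the low dose and 0.06 at the high dose, and 7 of 12 were still above 0 at 100 ng/mL. Each had a smaller value at 100 ng/mL than without doxycycline. TMEM41B reached 64.0, 56.9 and 64.6 CPM with both treatments, below the 90.4 to 98.4 CPM of thapsigargin alone, and TMEM79 reached 9.62, 5.28 and 7.13 CPM, against 11.9 to 12.1. This was not particular to TMEM genes. XBP1 was at 199 to 225 CPM with both treatments, against 464 to 494 with thapsigargin alone. DDIT3 was at 81.2 to 113 CPM, against 153 to 156, and HSPA5 was lower as well. The 17 genes that fell were at a median of -0.74, -0.56 and -0.52, in the same order of doses, and all 17 stayed below 0. These genes were chosen by the response without doxycycline, which favours large values there, so the change in median is a description.

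**Figure D5:**
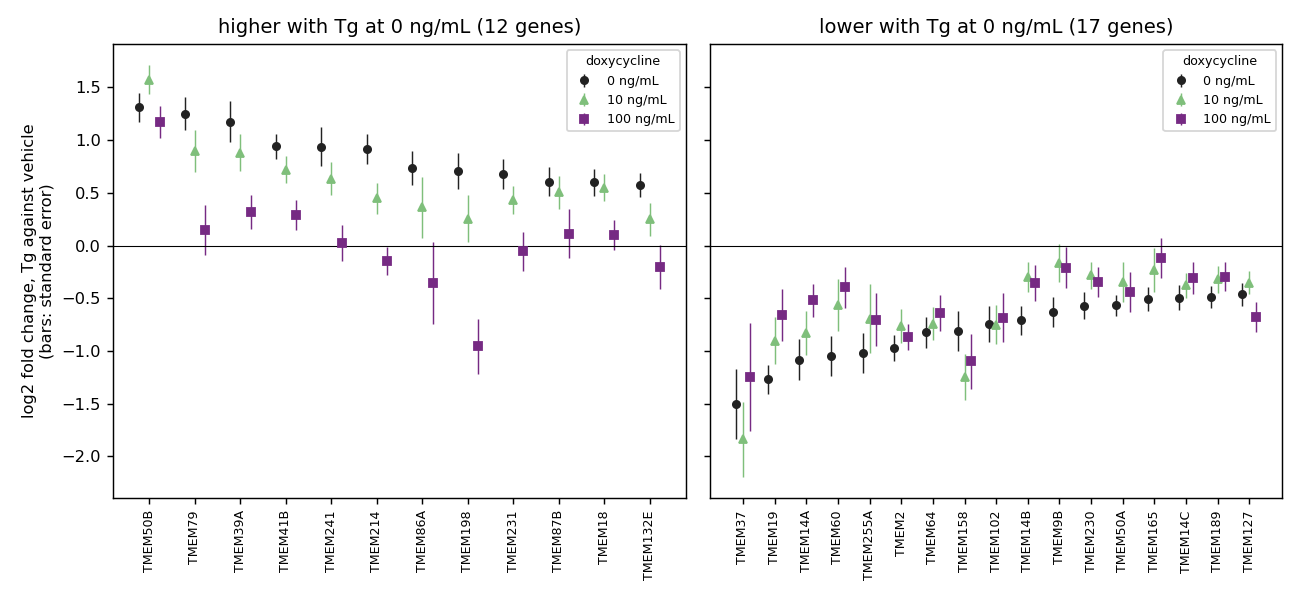
Log2 fold change with thapsigargin against vehicle at 0, 10 and 100 ng/mL doxycycline, for the 12 TMEM genes that rose (left) and the 17 that fell (right) in cells without doxycycline, with standard errors as bars. On the left the squares of 100 ng/mL lie below the circles of 0 ng/mL for each gene, TMEM50B by the least.

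The test of that difference is the interaction of thapsigargin with 100 ng/mL in 12 libraries. Of 195 TMEM genes edgeR called 0, with 44 lower and 11 higher at an unadjusted p under 0.05, against 1351 lower and 2300 higher of all genes. DESeq2 called 5, all lower (2.53%, against 0.982% of all genes). The background by edgeR was 0.0339% lower and 0.00677% higher of 14768 genes. The smallest edgeR adjusted p among them was 0.028, for TMEM198 (-1.58 ± 0.30, SE). TMEM214 followed with -0.98 ± 0.20 (SE, edgeR adjusted p = 0.034), TMEM185B with -0.67 ± 0.15 (SE, edgeR adjusted p = 0.049) and TMEM66 with -0.68 ± 0.18 (SE, edgeR adjusted p = 0.070). DESeq2 called these genes and TMEM41B. TMEM214 was at 94.2, 95.5 and 84.1 CPM with both treatments and at 96.6, 112 and 99.8 CPM at 100 ng/mL in vehicle. TMEM185B was at 33.6, 28.1 and 30.4 CPM with both, and at 55.6, 60.8 and 60.5 CPM at 100 ng/mL in vehicle. For TMEM50B the interaction was -0.05 ± 0.21 (SE). Without replicate 1 at 100 ng/mL with thapsigargin, 20 TMEM genes were called (10.2%, against 8.60% of all genes), 18 of them lower, where 421 of all genes were called lower and 865 higher. Without each of the other 11 libraries the count was 0.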

How the data were processed

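RNA-Seq libraries were made from HEK293doxERN2 cells in 6 groups of 3. The authors aligned reads with STAR. The values they deposited are raw counts, 1 row a gene symbol, for 18 libraries, without normalization. The submitters' processing notes name hg38, STAR and DESeq2. Versions, annotation and strand setting are not given in the sources used here. Of the deposited symbols, 28 read as dates. The TMEM genes and all lists were chosen with earlier results of these data known.

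For each comparison the libraries concerned were filtered with filterByExpr (minimum count 10), scaled by TMM and fitted in R 4.3.3 by glmQLFit and glmQLFTest of edgeR 4.0.16. P-values were adjusted by Benjamini and Hochberg's method across every gene in the fit, with a threshold of 0.01. Dividing the absolute log2 fold change by the root of F gave the SE. CPM were scaled by TMM over 18 libraries, and group overlap was read from them. The fits were tested on simulated data. All 18 pairs of replicates differed beyond counting noise (chi-square per degree of freedom 7.33 to 63.8). Replicate numbers were taken to pair libraries where each same-numbered pair correlated above 0.1 in its deviations from the group means, which held for 10 ng/mL against none under thapsigargin (0.44 to 0.59). The alternatives were DESeq2 1.42.0, RLE size factors, no filter, 1 fit of all groups, a replicate block, a threshold of 0.05 and each library left out.

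Named genes followed a rule: up to 12 lowest and 8 highest called at 100 ng/mL in vehicle, those called at 10 ng/mL, the 5 highest and 5 lowest called with thapsigargin, the 4 smallest interaction p, the 5 highest in CPM, the 4 smallest changes with an SE under 0.15, and a list of well-known members. Other names were chosen after values were seen. Positions, transcripts and proteins came from GENCODE 29 (GRCh38), matched for 197 of 198 genes, 13 through older symbols. A protein table that the planned analysis of early segments assumed was not used here, and GENCODE proteins were used instead, a choice made after seeing the files. Promoters came from RefSeq (GRCh38.p14). One marker of the kidney line is not reported here. Precision was limited by 3 libraries per group. Figures were drawn with matplotlib 3.10.9.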

Additional observations from a re-analysis of the deposited data

Results flagged for a closer look

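Results were picked out here where the groups compared did not overlap in either setting and the directions were opposite. The rule compares whole groups, not single libraries, and the share of all genes that meet it is not given. The median log2 fold change with thapsigargin at 100 ng/mL was -0.32 over the TMEM genes and -0.002 over all genes. With thapsigargin at 100 ng/mL of doxycycline the log2 fold changes were -0.956 for TMEM198, -1.180 for TMEM151A, -0.316 for TMEM178B, -0.147 for TMEM214, -0.154 for TMEM206, -0.509 for TMEM66, -0.872 for TMEM53 and -0.451 for TMEM246, while the values of these 8 genes with thapsigargin in uninduced cells were above 0. The difference was tested as an interaction, and none of these genes passed the threshold of 0.01 in edgeR. The adjusted p was 0.028 for TMEM198 and 0.034 for TMEM214. TMEM151A was near the count minimum, with 12, 13 and 12 counts at 100 ng/mL in vehicle and 9, 1 and 4 with thapsigargin.

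Induction with 100 ng/mL gave log2 fold changes of -1.162 for TMEM198, -0.664 for TMEM214 and -0.702 for TMEM79 under thapsigargin, against values above 0 in vehicle. The same interaction applies, and for TMEM79 its edgeR adjusted p was 0.074. Induction with 10 ng/mL under thapsigargin gave -0.303 for TMEM63A, against a value above 0 in vehicle, and that difference was not tested.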

How the results depend on the processing

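The counts of TMEM genes called depended on the fit. Where 2 percentages stand in brackets below, the first is the share of TMEM genes called and the second that of all genes. At 10 ng/mL in vehicle (2 called) the count was 0 in 1 fit of all 6 groups (0% and 0.02%) and 5 with the replicate number as a block (2.59% and 0.855%). It was 9 with DESeq2 (4.55% and 1.93%), 9 without a filter (4.55% and 3.14%) and 1 with RLE size factors (0.518% and 0.172%). It was 5 at a threshold of 0.05, and 0 to 33 (17.1% and 18.8%) with 1 library left out. At 100 ng/mL in vehicle (35) it was 22 with the block (11.5% and 5.19%), 53 at 0.05 and 28 (14.5% and 6.3%) to 39 (20.1% and 9.56%) with 1 library left out. With thapsigargin, 10 ng/mL (0) gave 12 with the block (6.22% and 3.89%) and 0 to 0 with 1 library left out. In the same way, 100 ng/mL (51) gave 78 in 1 fit (39.6% and 17.6%), 81 at 0.05 and 18 (9.18% and 5.23%) to 83 (43.2% and 27.2%) with 1 library left out. Thapsigargin without doxycycline (29) gave 19 in 1 fit (9.64% and 8.47%), 51 with the block (26.7% and 24.8%) and 49 at 0.05. It gave 12 (6.28% and 5.02%) to 26 (13.5% and 13%) with 1 library left out. At 10 ng/mL (1) it gave 10 in 1 fit (5.08% and 4.5%), 57 with the block (29.5% and 24.8%) and 16 with DESeq2 (8.08% and 5.29%). It gave 9 without a filter (4.55% and 2.66%), 16 at 0.05 and 1 to 4 (2.04% and 3.32%) with 1 library left out. At 100 ng/mL (1) it gave 31 in 1 fit (15.7% and 6.26%), 0 with the block (0% and 0.0277%) and 20 with DESeq2 (10.1% and 3.68%). It gave 6 without a filter (3.03% and 1.51%), 13 at 0.05 and 0 to 45 (23.3% and 17.6%) with 1 library left out. The interaction (0) gave 5 with DESeq2 (2.53% and 1.65%), 2 without a filter (1.01% and 0.416%), 3 at 0.05 and 0 to 20 (10.2% and 8.6%) with 1 library left out. At 0.05 the share of all genes called was 0.759%, 14.3%, 0%, 21%, 22.6%, 6.91%, 3.42% and 1.01% in the same order of comparisons. The cause was not tested. Outside the comparison of 10 ng/mL under thapsigargin, not all pairs of same-numbered libraries correlated above 0.1 (from -0.48 to 0.61). Replicate numbers were not taken to pair the libraries there, though some pairs did correlate. For thapsigargin against vehicle the values were 0.61, -0.04 and 0.57 at 10 ng/mL and 0.08, 0.28 and 0.36 without doxycycline.

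The median of TMEM genes with an early segment was -0.33 when early meant the first 40 residues (main -0.25) and -0.31 to -0.26 with 1 library left out. The median of those without one was -0.20 to -0.13. In 1 fit of all groups the median interaction over all genes was -0.08, against 0.04.

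For named genes 984 settings were run on 80 results, of which 873 kept direction and side of the threshold, 61 lost a call, 33 gained one and 17 changed sign near 0. The sign changes at 100 ng/mL in vehicle were TMEM259 (-0.2289 to 0.0785 with 1 library left out), TMEM106C (-0.0784 to 0.0256), TMEM120B (-0.0429, -0.0371 and -0.0032), TMEM41B (0.0014 with DESeq2, 0.0011 with RLE, and 0.0288, 0.0213, 0.0117 and 0.0622, at lowest -0.0953, with 1 library left out) and TMEM173 (0.0439 and 0.042). The others were TMEM39A at 100 ng/mL with thapsigargin (-0.0815 to 0.4315), and TMEM33 (-0.1764 to 0.0205) and TMEM87A (-0.0039 and -0.0143, at highest 0.1827) with thapsigargin alone. Calls at 100 ng/mL in vehicle were lost for TMEM123 without uninduced replicate 2 or 3, TMEM132A without uninduced replicate 1, TMEM260 without uninduced replicate 2, TMEM47 without induced replicate 3, and TMEM237 without that library or any 1 uninduced library. At 100 ng/mL with thapsigargin, TMEM255A and TMEM54 lost theirs without induced replicate 2 or uninduced replicate 1, TMEM47 also without uninduced replicate 2, TMEM17 without induced replicate 2 or any 1 uninduced library, and TMEM132B without induced replicate 3 or uninduced replicate 1 or 2. With thapsigargin alone, TMEM14A lost its call without vehicle replicate 1, TMEM241 and TMEM255A also without thapsigargin replicate 2, TMEM37 without each library but vehicle replicate 3 and TMEM165 without each but thapsigargin replicate 2. In 1 fit of all groups the calls of TMEM123, TMEM132A, TMEM237 and TMEM47 at 100 ng/mL in vehicle, of TMEM165 and TMEM258 at 10 ng/mL, and of TMEM165, TMEM255A and TMEM37 with thapsigargin alone were lost. With the replicate number as a block those of TMEM123, TMEM132A, TMEM237 and TMEM260 at 100 ng/mL in vehicle were lost, and with RLE size factors that of TMEM258 at 10 ng/mL. Depth limits genes near the count minimum.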
